A study of Mus musculus with 6 samples.

Results

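The genes described are 10 heat shock protein and small chaperone genes: the small heat shock genes Hspb1, Cryab and Hspb8, the HSP70 genes Hspa1b and Hspa8, the HSP110 gene Hsph1, the J protein gene Dnajb1, the HSP90 gene Hsp90aa1, and the mitochondrial chaperonin genes Hspd1 and Hspe1. They were chosen by symbol, from the probe sets annotated to exactly 1 of these genes, and each gene is represented by whichever of its probe sets was brightest on average. All 10 were found, with 27 probe sets, among 18194 named genes. All 10 were also among the 12386 genes called detected, which reached the median of the whole table, a log2 value of 6.55, on at least 1 array. None of them passed that filter through a single high array, since the lowest value of any of the 10 on any array was 8.44.

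The cells were 3T3-L1, a mouse preadipocyte line, which was brought to differentiate with insulin, a phosphodiesterase inhibitor and dexamethasone and then treated for 5 days in medium with insulin. Ritonavir blocks the protease of HIV, and tenofovir is a nucleotide analogue that blocks its reverse transcriptase. The first experiment had a group with 20 µM ritonavir, a group with 1 µM tenofovir and a vehicle group with 0.1% ethanol. Whether the drug groups also held ethanol is not stated, so a difference in vehicle cannot be told apart from the drug in any comparison with ethanol. In the second, 20 µM ritonavir was present throughout, and the cells were also given 0.1% DMSO, 100 µM c9,t11-CLA or 100 µM t10,c12-CLA. The last 2 agents are isomers of conjugated linoleic acid (CLA) that differ in the position and geometry of their double bonds. Each group is 1 array, hybridised with RNA pooled from 4 replicate experiments, so no spread between replicates can be given and no difference was tested. The values are log2 values from RMA, on which a difference of 1 is 2-fold. RNA was taken from whole cultures, in which fewer cells of a type and less RNA per cell cannot be told apart.

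Molecular chaperones bind unfolded or partly folded proteins and keep them from aggregating. Small heat shock proteins hold such proteins without using ATP. HSP70, helped by J proteins that bring in substrates and by HSP110 that exchanges nucleotide, refolds them, while HSP90 acts on signalling proteins and receptors at a later stage. Many of these genes are induced by heat shock factor 1 (HSF1), which binds heat shock elements, arrays of inverted GAA units in the promoter. Others, such as Hspa8, are made at a high level in unstressed cells. In fat cells, as in other cells, the mitochondrial pair HSP60 and HSP10 folds proteins imported into the matrix.

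The promoters are shown first, since they carry the sequence by which heat shock genes are usually grouped, and the arrays can be read against it. RefSeq windows (GRCm38.p6) were listed for 7 of the 10 genes, with 10 windows in all, and the 250 bases before each start were searched on both strands. A pair of inverted units was written GAANNTTC or TTCNNGAA. A run of 3 units was the first of these followed by NNGAA, or the second followed by NNTTC, so that each run also holds overlapping pairs. A pair was present in 6 of the 10 windows, from 5 of the 7 genes, and in 12.8% of all 32851 windows of that length. A run of 3 was present in 2 of the 10, from 2 genes, and in 0.466% of all windows. In the pieces below, printed 5′ to 3′ on the strand of the gene, capitals mark the matches.
Hspb1, chr5:135887777-135887854, plus strand: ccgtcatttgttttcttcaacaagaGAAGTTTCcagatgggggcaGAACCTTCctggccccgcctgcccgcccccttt
Hsph1, chr5:149636337-149636394, minus strand: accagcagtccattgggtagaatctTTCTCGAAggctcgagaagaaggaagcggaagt
Hspa1b, chr17:34959310-34959367, minus strand: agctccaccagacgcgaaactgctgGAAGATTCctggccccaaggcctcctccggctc
Hspe1, chr1:55088034-55088101, plus strand: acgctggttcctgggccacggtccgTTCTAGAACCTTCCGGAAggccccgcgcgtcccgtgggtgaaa

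Hspb1 had 2 separate pairs, which began 117 and 97 bases before the start. The pair of Hsph1 began 33 bases before the more distal of its 2 listed starts, and that of Hspa1b 104 bases before its start. The run in the Hspe1 window lies between this gene and Hspd1, which is transcribed the other way from a start 216 bases away, and the same bases read on the other strand form the match in the Hspd1 window. The other listed start of Hspd1 had no match in its window. These letters were not in the windows of Hspb8 and Dnajb1. A TATA box (TATAAA) was in 0 of the 10 windows and in 12.4% of all windows. CCAAT was in 4 of the 10, from Hspa1b, Hsph1 and Dnajb1, and in 33.8% of all windows. A match is a stretch of letters and no measurement of binding.

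The small heat shock gene Cryab had the largest difference of the 10 genes between the ritonavir and ethanol arrays. Cryab encodes alpha-B-crystallin, which is abundant in lens and muscle and binds desmin and actin filaments. Its log2 value was 9.25 with ethanol and 9.55 with tenofovir, 11.65 with ritonavir, 10.92 with ritonavir and DMSO, 10.68 with c9,t11-CLA and 11.68 with t10,c12-CLA. All 4 arrays with ritonavir lay above both arrays without it, and the gap between the nearest of them was 1.13. The ritonavir array was 5.28-fold above ethanol, a log2 difference of 2.40, and 1.68% of detected genes differed by as much or more. Ritonavir with DMSO was 3.18-fold above the same ethanol array, a difference of 1.67. The other detected probe set of the gene gave 2.39 and 1.44, while its remaining probe set stayed under the detection level on all arrays, with a mean of 5.30.

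Hspb1 encodes a small heat shock protein that caps actin filaments and forms large oligomers. Its values were 8.52 with ethanol, 8.44 with tenofovir, 9.30 with ritonavir, 8.84 with ritonavir and DMSO, 8.79 with c9,t11-CLA and 9.96 with t10,c12-CLA. The array of t10,c12-CLA was the highest, the 2 arrays without ritonavir were the lowest, and the arrays of DMSO and c9,t11-CLA were 0.05 apart. Ritonavir was 1.71-fold above ethanol, a difference of 0.78, and a second probe set gave 1.18. With DMSO the difference from ethanol was smaller, at 0.32.

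Hspb8 encodes a partner of the cochaperone BAG3 in the selective autophagy of misfolded proteins. It stood at 9.77 with ethanol and 9.78 with tenofovir, at 9.95 with ritonavir, at 10.47 with ritonavir and DMSO, at 10.53 with c9,t11-CLA and at 10.84 with t10,c12-CLA. Here the array of ritonavir alone was close to the arrays without the drug, and the 3 arrays of the second experiment lay 0.52 or more above it. On the other detected probe sets c9,t11-CLA was nearer to ritonavir, at 8.84 against 8.74 and at 8.72 against 8.32. The difference from ethanol was 0.19 for ritonavir and 0.71 for ritonavir with DMSO. Of its 3 detected probe sets, 1 had the opposite sign in the first of these, at -0.24, and all were above 0 in the second.

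**Figure D1:**
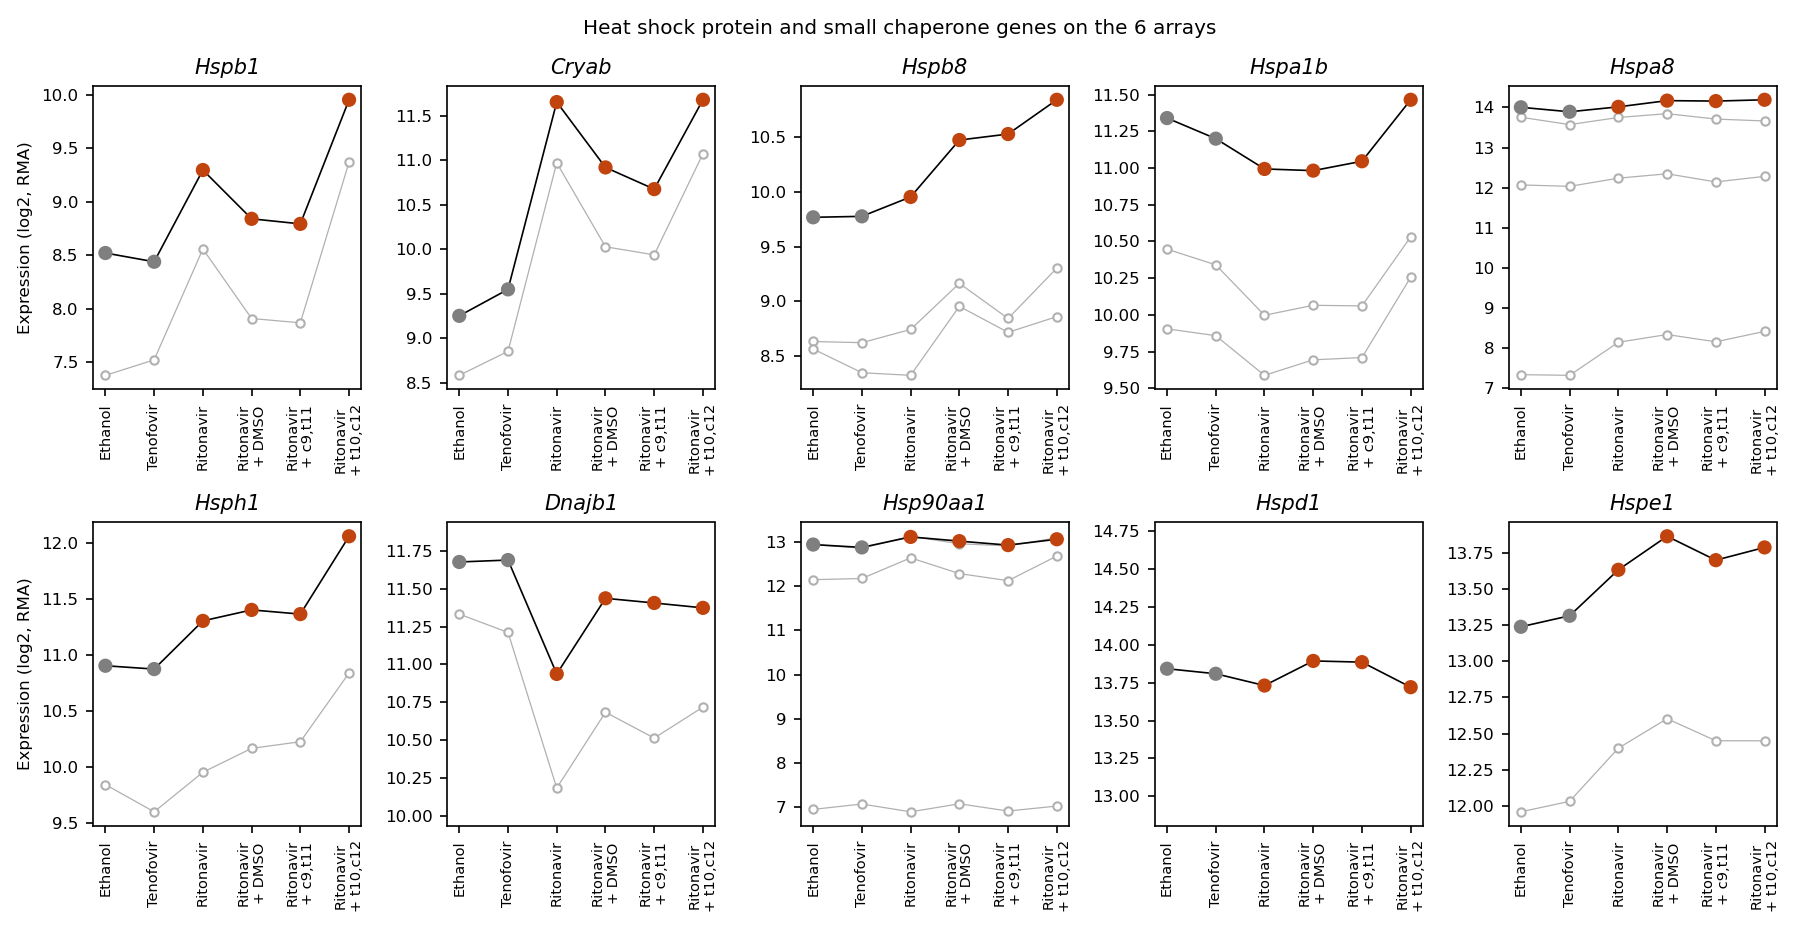
Log2 expression (y axis, RMA) of the 10 genes on the 6 arrays (x axis), 1 array a group; filled points are the probe set used for the gene, grey without and red with ritonavir, and open points are its other detected probe sets. Lines only join the points of a probe set, and the scale differs between panels. Cryab runs from 9.25 with ethanol to 11.68 with t10,c12-CLA, whereas Hspd1 stays between 13.72 and 13.89.

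The stress-inducible HSP70 gene Hspa1b ran the other way between these arrays. It stood at 11.34 with ethanol, 11.20 with tenofovir, 10.99 with ritonavir, 10.98 with ritonavir and DMSO, 11.05 with c9,t11-CLA and 11.46 with t10,c12-CLA. The array of t10,c12-CLA was the highest and the other 3 with ritonavir were the lowest. Both differences from ethanol were small, at -0.35 for ritonavir and -0.36 for ritonavir with DMSO. All 3 probe sets were below 0 in both. The coding sequence of Hspa1b is nearly identical to that of Hspa1a, so the arrays may not tell the 2 genes apart. The probe set annotated to Hspa1a lay under the detection level on all arrays, between 2.85 and 3.02.

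Dnajb1, a J protein that stimulates the ATPase of HSP70 and is itself induced by heat, was the gene with the largest downward difference. Its values were 11.68 with ethanol, 11.69 with tenofovir, 10.94 with ritonavir, 11.44 with ritonavir and DMSO, 11.41 with c9,t11-CLA and 11.37 with t10,c12-CLA. All 4 arrays with ritonavir were below both others, that of ritonavir alone by most. The difference between ritonavir and ethanol was -0.74, and a second probe set gave -1.15. With DMSO it was -0.24, and -0.65 for the second probe set.

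Hsph1 encodes an HSP110 protein that acts on HSP70 as a nucleotide exchange factor. Its values were 10.91 with ethanol, 10.88 with tenofovir, 11.31 with ritonavir, 11.40 with ritonavir and DMSO, 11.37 with c9,t11-CLA and 12.06 with t10,c12-CLA. The 3 arrays of ritonavir without t10,c12-CLA were within 0.10 of each other, above the 2 arrays without ritonavir and below that of t10,c12-CLA. Relative to ethanol the difference was 0.40 with ritonavir and 0.50 with ritonavir and DMSO. A second probe set gave less, 0.11 and 0.32. On that probe set the values were 9.96 with ritonavir, 10.17 with ritonavir and DMSO and 10.23 with c9,t11-CLA, so these arrays were farther apart.

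Hspa8, Hsp90aa1 and Hspd1 varied least. Hspa8, the HSP70 of unstressed cells, lay between 13.89 with tenofovir and 14.19 with t10,c12-CLA, and Hsp90aa1, the inducible HSP90 isoform of the cytosol, between 12.88 with tenofovir and 13.12 with ritonavir. Hspd1, which encodes HSP60, lay between 13.72 with t10,c12-CLA and 13.89 with DMSO, a range of 0.17 over all 6 arrays. Values of this size are near the top of the scale, which ended at 15.01, and differences there can be compressed. For Hspa8 another probe set, with a mean of 7.95, gave 0.81 for ritonavir against ethanol and 1.00 with DMSO, where the main one gave 0.01 and 0.17. The 2 other probe sets of Hspa8 were between -0.01 and 0.28 in these comparisons. For Hsp90aa1 another probe set gave 0.49 for ritonavir against ethanol, where the main one gave 0.17.

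Hspe1 encodes HSP10, the lid of the HSP60 chamber, and shares with Hspd1 the stretch between their starts that is shown above. Its values were 13.24 with ethanol, 13.32 with tenofovir, 13.64 with ritonavir, 13.87 with ritonavir and DMSO, 13.70 with c9,t11-CLA and 13.79 with t10,c12-CLA. The 4 arrays with ritonavir lay at least 0.32 above both others. The difference from ethanol was 0.40 for ritonavir and 0.63 for ritonavir with DMSO, and a second probe set gave 0.44 and 0.65. For Hspd1 the same differences were -0.11 and 0.05, from its only probe set.

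Of the 10 genes, 1 was at least 2-fold higher with ritonavir than with ethanol (Cryab) and 0 were 2-fold lower. Over all detected genes the shares were 4.56% higher and 6.39% lower. At 1.5-fold, 2 were higher (Cryab and Hspb1) and 1 lower (Dnajb1), beside 12.4% of all detected genes in each direction. The nearest to the 2-fold line from below were Hspb1 at 0.78 and Dnajb1 at -0.74. On their other detected probe sets both were past that line, at 1.18 and -1.15. The 2-fold count thus depends on the probe set used. For ritonavir with DMSO against ethanol 1 gene was 2-fold higher, Cryab again, and 0 lower, beside 1.52% and 2.99% of all detected genes. At 1.5-fold 3 were higher (Cryab, Hspb8 and Hspe1) and 0 lower, beside 6.45% and 7.69%. The median difference of the 10 was 0.18 with ritonavir and 0.24 with ritonavir and DMSO, where the medians of all detected genes were 0.00 and 0.02. Both comparisons use the same ethanol array.

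The 4 arrays with ritonavir lay wholly above the 2 without it for 6 of the 10 genes, namely Cryab, Hsph1, Hspe1, Hspb1, Hspb8 and Hspa8, and wholly below for 1, Dnajb1. For Hspa8 the gap was only 0.01. Another detected probe set of Hspa8 overlapped, with t10,c12-CLA at 13.66 and ethanol at 13.76. So did one of Hspb8, with ritonavir at 8.32 and ethanol at 8.56. Over all detected genes 28.6% lay wholly above and 22.6% wholly below. These arrays also differ in experiment, vehicle and added fatty acid.

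**Figure D2:**
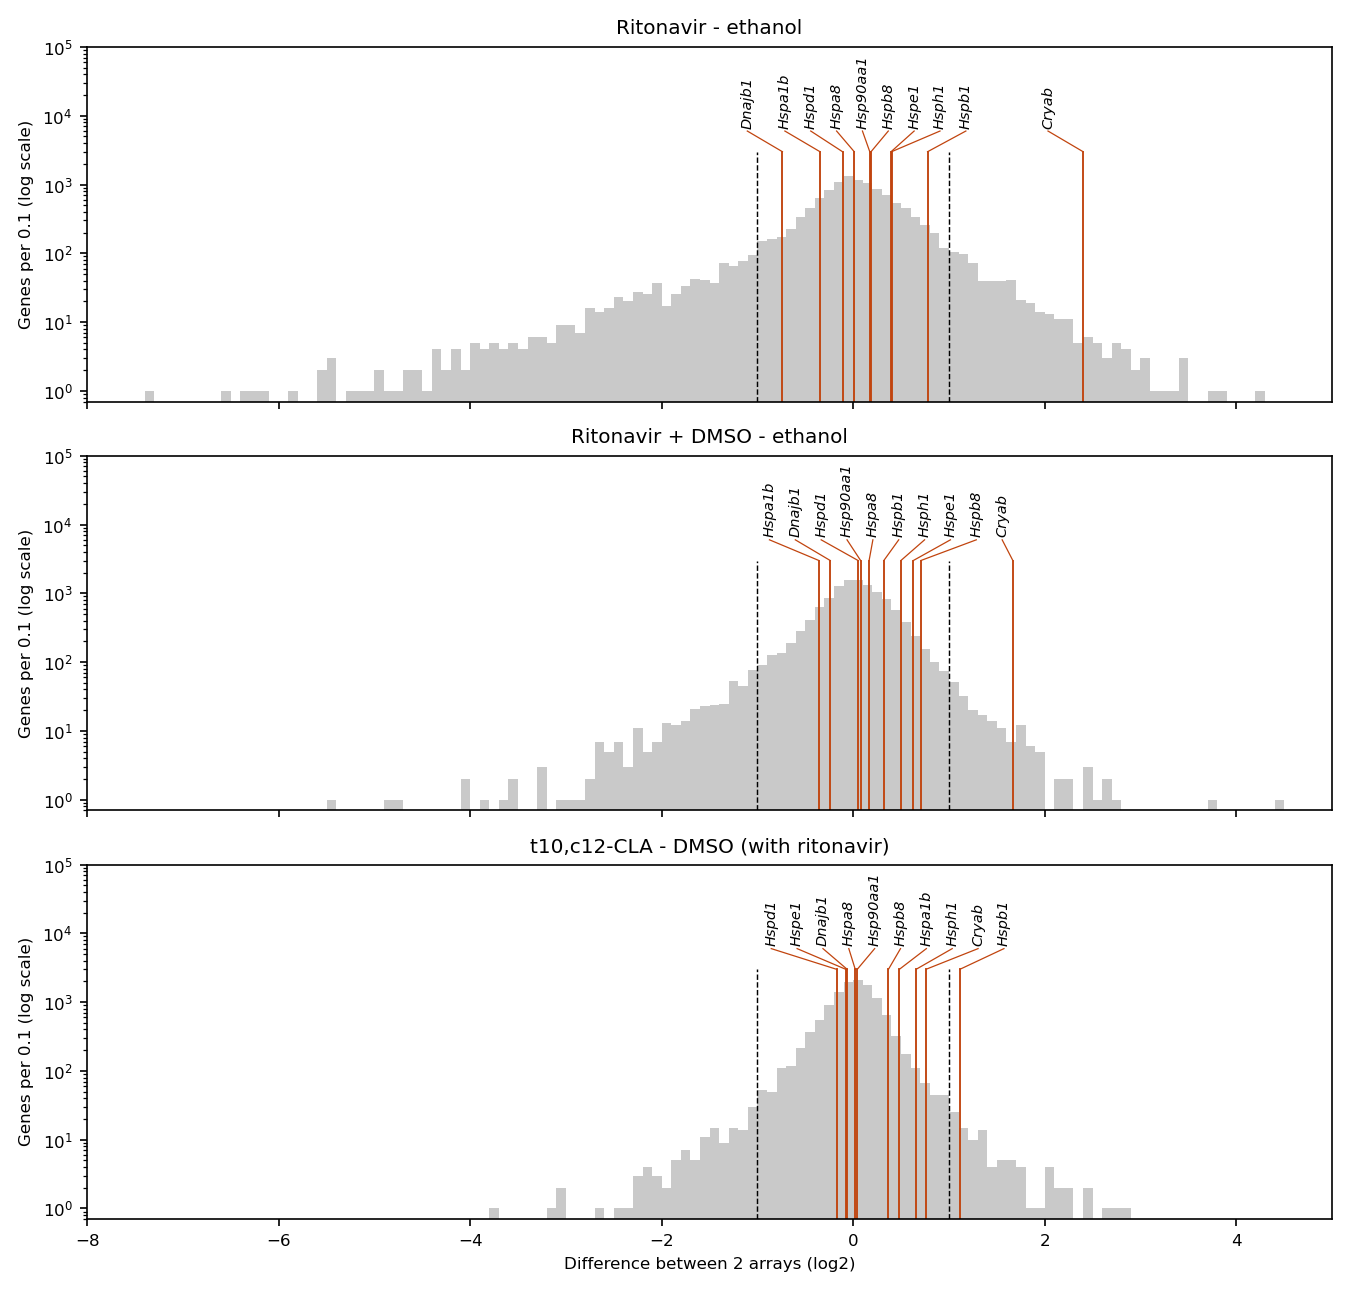
Histograms of the log2 difference (x axis) of all 12386 detected genes, in bins of 0.1 with counts on a log scale (y axis), for ritonavir minus ethanol, ritonavir with DMSO minus ethanol and t10,c12-CLA minus DMSO; red lines mark the 10 genes and dashed lines a 2-fold difference. Cryab lies in the outer part of the first histogram at 2.40, while the other 9 lie between -0.74 and 0.78.

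When ritonavir with DMSO was set directly against ritonavir, the arrays differed in experiment as well as in vehicle, which cannot be told apart. At least 2-fold apart were 0 of the 10 genes in either direction, beside 2.83% of detected genes higher and 2.07% lower. At 1.5-fold 0 were higher and 1 was lower, Cryab at -0.73, beside 8.43% and 6.18%. Hspb1 differed by -0.46, whereas Hspb8 differed by 0.52 and Dnajb1 by 0.50.

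Tenofovir gave values close to those of ethanol. No gene of the 10 was 1.5-fold apart (0 of 10), beside 0.0565% of detected genes that were 1.5-fold higher and 0.0404% that were lower, and the 2-fold shares were 0% in both directions. Cryab had the largest difference, 0.30, and 3.20% of detected genes were as far apart or farther. Its second probe set gave 0.27. The other 9 genes were between -0.14 (Hspa1b) and 0.08 (Hspe1).

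The second experiment compared the isomers of CLA in cells that all received ritonavir. With t10,c12-CLA, Hspb1 was 2.16-fold above its value with DMSO, a difference of 1.11, and 1.35% of detected genes differed by as much or more. Cryab was 0.76 above, Hsph1 0.66, Hspa1b 0.48 and Hspb8 0.37. Second probe sets gave 1.46 for Hspb1, 1.04 for Cryab and 0.67 for Hsph1, and those of Hspa1b gave 0.56 and 0.47. The other probe sets of Hspb8 gave 0.14 and -0.09. Hspa8, Hsp90aa1, Dnajb1, Hspd1 and Hspe1 lay between -0.17 (Hspd1) and 0.04 (Hsp90aa1). Another probe set of Hsp90aa1 gave 0.40. Both isomers were compared with the same DMSO array.

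In that comparison 1 of the 10 genes was at least 2-fold higher and 0 lower, beside 0.783% and 1.05% of all detected genes. At 1.5-fold 3 were higher (Hspb1, Cryab and Hsph1) and 0 lower, beside 3.11% and 3.96%. The median of the 10 was 0.21, and that of all detected genes 0.02. The DMSO dose is given for the control alone, so a difference in vehicle between these arrays is not known.

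With c9,t11-CLA the 10 genes lay between -0.24 (Cryab) and 0.06 (Hspa1b) of their values with DMSO. At 2-fold and at 1.5-fold 0 of the 10 were apart. Among all detected genes 0% were 2-fold higher and 0.00807% lower, and 0.0969% were 1.5-fold higher and 0.0727% lower. For Hspb1 the difference was -0.05 and for Hsph1 -0.04. Hspb8 differed by 0.05 on its main probe set, but by -0.32 and -0.24 on its other detected ones.

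The isomers, given at the same dose and for the same time, form the 1 pair of related compounds in the series. Hspb1 was 2.24-fold higher with t10,c12-CLA than with c9,t11-CLA, a difference of 1.16, and Cryab 2.01-fold, a difference of 1.00 that falls just on the 2-fold line. Hsph1 differed by 0.69 and Hspa1b by 0.42. In all, 2 of the 10 were 2-fold higher and 0 lower, beside 0.953% and 1.53% of detected genes, and 3 were 1.5-fold higher and 0 lower, beside 3.13% and 4.96%. Hspb8 (0.31), Hspa8 (0.03), Dnajb1 (-0.03), Hspe1 (0.09), Hsp90aa1 (0.13) and Hspd1 (-0.17) were less far apart on their main probe sets. The other detected probe sets of Hsp90aa1 gave 0.56, 0.18 and 0.11, and those of Hspb8 0.46 and 0.14. Those of Hspa8, Dnajb1 and Hspe1 lay between -0.05 and 0.26. The second detected probe set of Cryab gave 1.14, and that of Hspb1 was also past the 2-fold line. Other probe sets gave 0.61 for Hsph1, and 0.55 and 0.47 for Hspa1b. With 1 array an isomer, no interval can be given for these differences, and they do not show that the isomers act alike on a gene.

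**Figure D3:**
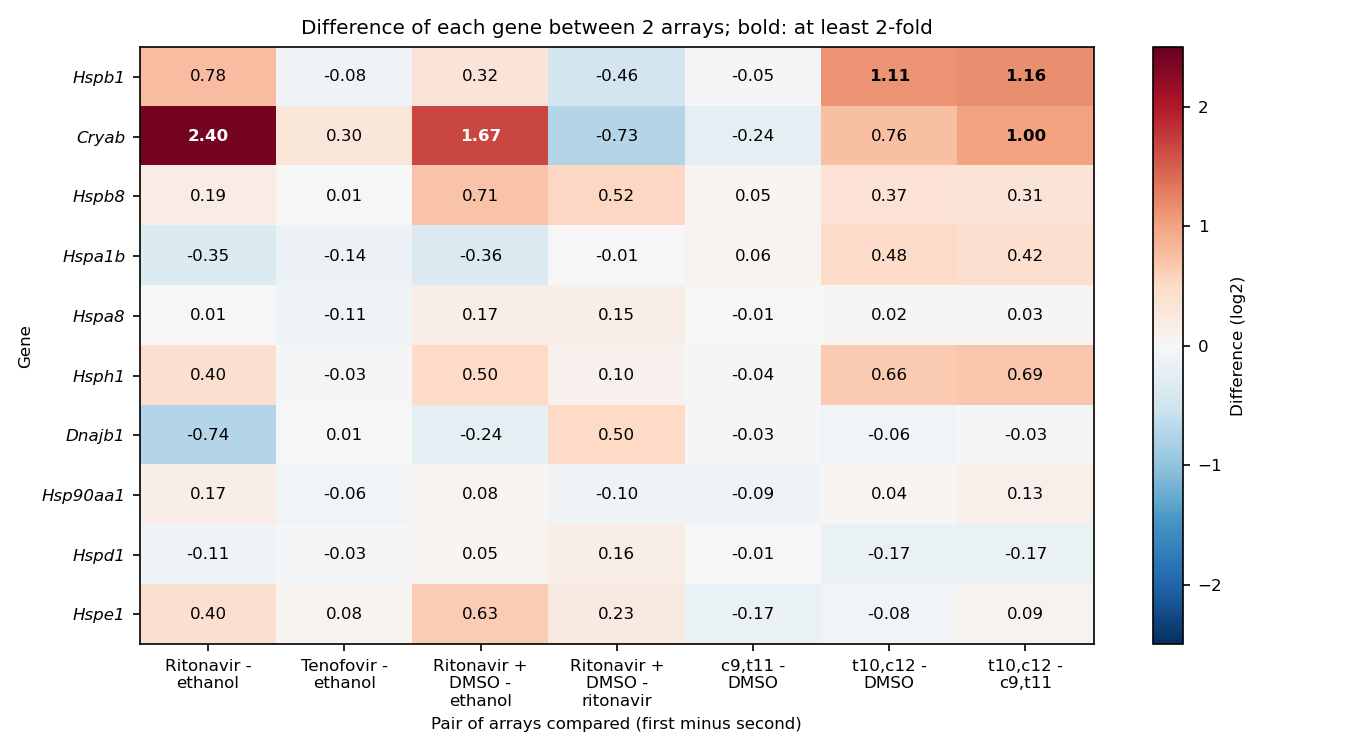
Log2 difference of each of the 10 genes (rows) in the 7 pairs of arrays compared (columns, first array minus second), with red for higher and blue for lower in the first array; bold values are at least 2-fold. The values of 2-fold or more are those of Cryab (2.40, 1.67 and, between the isomers, 1.00) and Hspb1 (1.11 and 1.16).

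The wider chaperone network was described through 8 lists with 92 further genes, of which 80 were detected. Set against ethanol, the ritonavir array had 1 of the 80 past 2-fold upward and 1 downward, and 14 and 2 past 1.5-fold. The shares of all detected genes were 4.56% and 6.39% at 2-fold and 12.4% in each direction at 1.5-fold. The 1 that was higher was Hspb6, a small heat shock protein of muscle, with a difference of 1.73 for ritonavir but 0.37 for ritonavir with DMSO. The 1 that was lower was Dnajb9, a J protein of the endoplasmic reticulum, at -1.24, or 0.27 with DMSO. For ritonavir with DMSO, 3 of the 80 were past 2-fold upward and 0 downward, beside 1.52% and 2.99% of all detected genes. These were the J protein gene Dnaja4 (1.22), Hscb (1.04), a mitochondrial cochaperone of iron-sulfur cluster assembly, and Hsf2 (1.00), a heat shock factor. Hsf2 lay under the detection level with ethanol, at 6.02, so the size of its difference is uncertain. Hsf1 had no named probe set in the table used here.

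Of 5 detected small heat shock genes besides the 3 described, 4 were above 0 with ritonavir, with a median of 0.33. Cryaa (0.02) and Hspb7 (-0.12) were under the detection level on both arrays compared, so their signs carry little weight. Cryaa, the lens partner of Cryab, lay between 6.21 and 6.60 and reached the detection level on 2 arrays only. The chaperonin TRiC, which folds actin and tubulin, and its feeder prefoldin had 13 of 14 genes above 0 with ritonavir and a median of 0.31, and 13 of 14 with a median of 0.16 with DMSO. Of all detected genes 50.2% and 52% were above 0 in these comparisons, with medians of 0.00 and 0.02. None of these was 2-fold apart (0 of 14). The prefoldin subunit gene Pfdn5 differed by 0.84 and the TRiC subunit gene Tcp1 by -0.09. For ritonavir against ethanol, the HSP70 and HSP110 genes besides the members had a median of 0.03, from Hspa4l at -0.45 to Hspa13 at 0.31. HSP70 cochaperones had one of 0.10, from Bag4 at -0.37 to St13 at 0.65. Other J proteins had a median of 0.05. HSP90 relatives and cochaperones had one of 0.22, from Hsp90b1, which encodes the HSP90 of the endoplasmic reticulum, at -0.38 to Fkbp5, an immunophilin of steroid receptor complexes, at 0.69. That median rests on 9 of 12 listed genes, since Hsp90ab1, Ptges3 and Ppid had no named probe set. The mitochondrial folding and protease genes had one of -0.04, from Clpx at -0.84 to the protease gene Htra2 at 0.88.

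With t10,c12-CLA against DMSO 0 of the 80 genes were 2-fold apart, beside 0.783% of all detected genes higher and 1.05% lower. At 1.5-fold 0 were higher and 1 was lower, beside 3.11% and 3.96%; this was Clpx at -0.61, which encodes the unfolding subunit of a matrix protease. Of TRiC and prefoldin 13 of 14 genes were above 0, with a median of 0.18. Of 15 mitochondrial folding and protease genes 13 were below 0, with a median of -0.17, and Htra2 was the highest at 0.55. Of all detected genes 52.8% were above 0 and 47.1% below. The HSP70 cochaperones went both ways, from Bag4 at -0.51 to Bag3, a partner of HSPB8, at 0.52, with a median of 0.09. The HSP70 and HSP110 genes ran from Hspa2 at -0.32 to Hspa4l, an HSP110 relative, at 0.45, with a median of 0.00. Other J proteins ran from Dnajb9 at -0.55 to Dnaja4 at 0.49, and the largest difference of the HSP90 list was that of the kinase cochaperone gene Cdc37, at 0.49. With c9,t11-CLA and with tenofovir 0 of the 80 were 1.5-fold apart. Of all detected genes 0.0969% were higher and 0.0727% lower with c9,t11-CLA, and 0.0565% and 0.0404% with tenofovir.

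**Figure D4:**
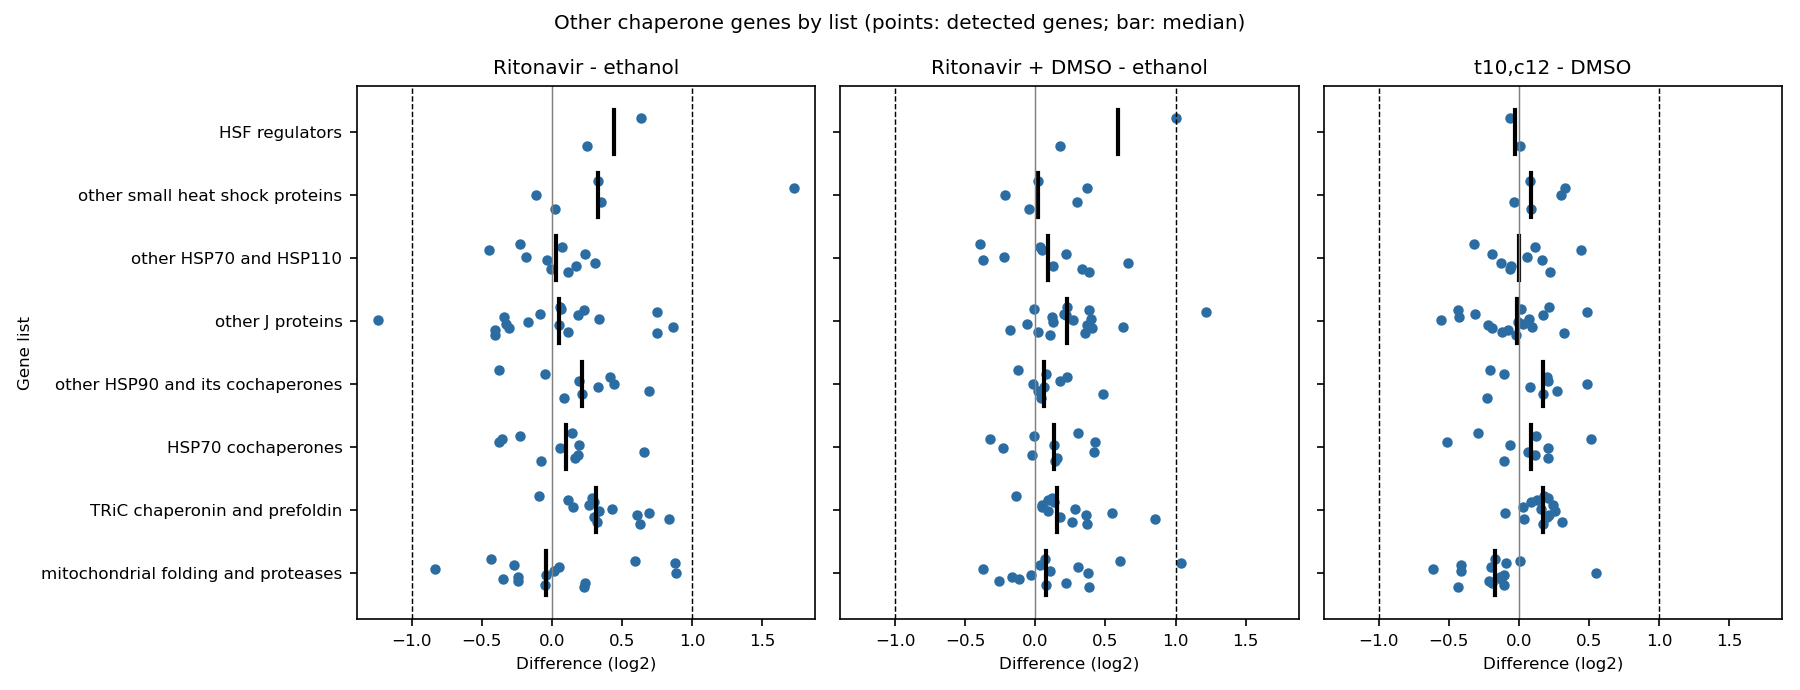
Log2 difference (x axis) of the detected genes of 8 chaperone lists (rows, members described above left out) for 3 pairs of arrays; points are genes, black bars list medians and dashed lines a 2-fold difference. Hspb6 is the point at 1.73 in the first panel and Dnajb9 the one at -1.24.

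Fat cell markers and markers of contractile cells also differed between these arrays. All 7 named adipocyte markers of 8 listed were over the detection level on every array, and the log2 of their summed level was 16.85 with ethanol, 16.84 with tenofovir, 15.46 with ritonavir, 16.63 with DMSO, 16.63 with c9,t11-CLA and 16.01 with t10,c12-CLA. Smooth muscle and myofibroblast markers (9 genes) summed to 12.47, 12.46, 14.74, 12.57, 12.71 and 13.47 in the same order. Tagln, an actin-binding protein of smooth muscle, stood at 7.70 with ethanol, 11.46 with ritonavir and 8.52 with DMSO, while Cnn1 was under the detection level on all arrays. The list did not move as one between ritonavir and ethanol, since 4 of its 8 detected genes were 2-fold higher and 2 were lower, Myh11 at -1.88 and Smtn at -1.52. Myh11 encodes the smooth muscle myosin heavy chain. The sums of preadipocyte and fibroblast markers (6 genes with a named probe set of 7) lay between 13.97 with DMSO and 15.21 with ritonavir. The adipocyte sum is carried largely by Adipoq, Fabp4 and Lpl. The median difference of the 7 adipocyte markers from ethanol was -3.50 with ritonavir and -0.69 with DMSO. In these comparisons 5 and 3 of the 7 were 2-fold lower, beside 6.39% and 2.99% of all detected genes. With DMSO 2 of the 7 were above 0.

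Cryab and Hspb1 were highest on the arrays of ritonavir and of t10,c12-CLA, where the adipocyte sum was lowest and the smooth muscle sum highest. Between those arrays the order was not shared. Hspb1 stood at 9.30 with ritonavir and 9.96 with t10,c12-CLA, and Cryab at 11.65 and 11.68. The smooth muscle sum was 14.74 and 13.47, and the adipocyte sum 15.46 and 16.01, in the same order. The part of the cell types marked by these lists in the result was not tested. The smooth muscle sum is carried largely by Acta2, which encodes smooth muscle actin. For ritonavir with DMSO against ethanol, where Cryab differed by 1.67, Acta2 differed by 0.35 and Tagln by 0.83, but Myh11 by -1.03 and Smtn by -2.21. Of 8 skeletal and cardiac muscle markers, 5 were under the detection level on every array, Myod1 and Myog among them, and of 5 lens markers 3 were. The macrophage list held Cd68, a lysosomal protein, at 6.87 with ethanol, 8.71 with ritonavir, 8.43 with DMSO and 10.10 with t10,c12-CLA. Cd14, a receptor subunit for bacterial lipopolysaccharide, stood at 7.90, 8.21, 8.81 and 9.24 on these arrays, and Csf1r between 7.43 and 7.66 on all 6. Adgre1, Ptprc and Itgam were under the level on every array. Of the endothelial markers, Pecam1, Cdh5 and Tek were also under it, and Kdr was over it.

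Genes with the most similar pattern were sought for the 4 members whose values spanned at least 1, by the root mean square difference of values centred on each gene's own mean, over 6 arrays and 12385 other genes. Nearest to Cryab were Bst2, which encodes the antiviral membrane protein tetherin (0.11), Ctsk, which encodes cathepsin K (0.13), and Id2, an inhibitor of helix-loop-helix factors (0.14). The nearest member, Hspb1, was at 0.56. For Hspb1 the nearest were the syntaxin gene Stx11 (0.11), Gadd45b, a gene of growth arrest and stress (0.11), and Tmem74 (0.12), which reached the detection level on the t10,c12-CLA array only. Hsph1 was closest to the uridine phosphorylase gene Upp1 (0.07), Sinhcaf (0.08) and Gclc, the catalytic subunit of the first enzyme of glutathione synthesis (0.08). Hspb8 was closest to B230311B06Rik (0.07), Dph3 (0.10) and Cd14 (0.12). Among members, Hspb8 and Hsph1 were 0.17 apart and Hspb1 and Hsph1 0.22. With 6 arrays and many genes, likeness of this degree is a description only.

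**Figure D5:**
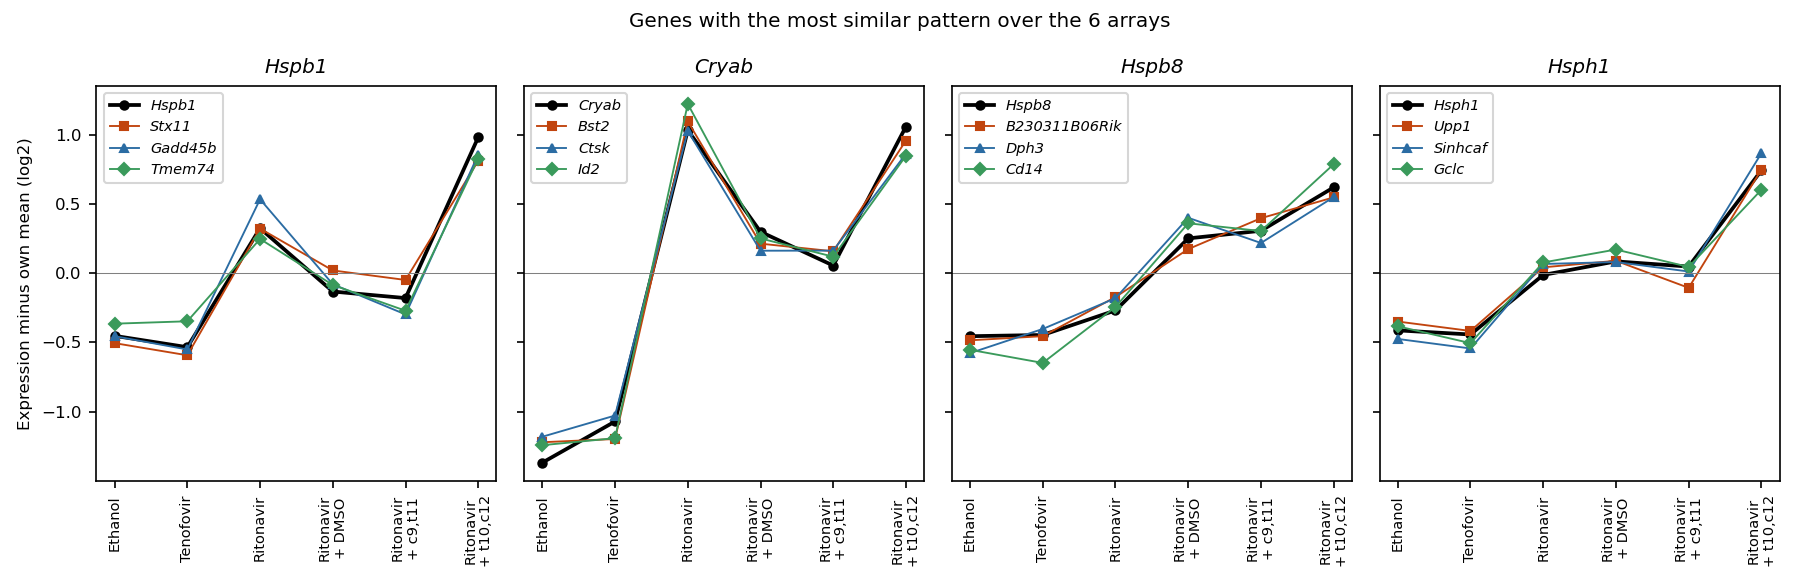
Log2 expression minus each gene's own mean (y axis) over the 6 arrays (x axis) for Hspb1, Cryab, Hspb8 and Hsph1 (black) and, in each panel, the 3 detected genes with the smallest root mean square difference from it. Cryab and its neighbours have their lowest values on the arrays without ritonavir, and Hspb1 and Hsph1 have their highest on that of t10,c12-CLA.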

How the data were processed

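Expression was measured on 6 Affymetrix arrays, 1 for each group. Per the labels, RNA was pooled from 4 replicate experiments before labelling. The deposited values are log2 values (45101 probe sets, 2.17 to 15.01), made by the authors with RMA and Affymetrix Expression Console, per the submitters' processing notes. The version and settings are not stated there. RMA equalises the arrays' distributions (medians 6.54 to 6.56), so a shift common to most genes would be removed. Probe sets were named through the platform annotation with symbols updated by gene identifier: 34958 had 1 gene, 932 with several genes were left out, and 9211 had no entry. Differences between arrays were counted at 2-fold and 1.5-fold without a test; the precision is limited by there being 6 arrays. The robust SD of all gene differences between tenofovir and ethanol was 0.113, between the 2 arrays of ritonavir and ritonavir with DMSO 0.314, and neither is a replicate error.

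Members, lists and comparisons were chosen with earlier results of these data known. All members are named. Of each list, up to 2 genes in each direction past 2-fold, and where none was, the largest in each direction could be named. Cryaa, Hspb7, Hsf1, Hsp90ab1, Ptges3, Ppid, the nearest members in pattern, undetected markers and the genes that carry marker sums were named after the results were seen. Genes of similar pattern were the 3 nearest to each member spanning at least 1. The counting was tested on simulated data. Python 3.11.15, numpy 2.4.6, pandas 2.3.3, statsmodels 0.14.6 and matplotlib 3.10.9 were used.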

Additional observations from a re-analysis of the deposited data

How the results depend on the processing

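The values were recomputed with each gene as the mean over its probe sets, with only probe sets without an _s_, _x_ or _a_ suffix, with no detection filter or a level at the upper quartile (8.77), with low values raised to the detection level, after quantile normalization again, with a lowess trend removed (span 0.3), at 1.5-fold and 3-fold, and, for ritonavir against ethanol, with the mean of both arrays of ritonavir without CLA. Of 329 recomputed differences of the 10 genes, 316 kept their sign, and the 13 that turned were at most 0.09 in size as reported. Of the 13, Hspb8 for c9,t11-CLA against DMSO became -0.17 with the mean of probe sets. The 329 include 70 with low values raised to the detection level. Those 70 could not change, since all values of the 10 genes were over that level. Nor could Hspd1 change with the mean of probe sets, since it has only 1. Without suffixed probe sets Hspb8, Dnajb1 and Hspd1 could not change either, since their main probe sets have no such suffix. The largest shift was 0.83, for the Hspa8 probe set without a suffix. As the mean of its probe sets, 1 of them undetected, Cryab differed by 1.60 for ritonavir and by 1.01 for ritonavir with DMSO, against ethanol.

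Of 64 recomputed counts, 53 were within 1.5 times the reported one. Counts with no detection filter, with the upper quartile level and with low values raised could not change. All 10 genes reach both levels, and none has a value under the lower one. For tenofovir, for c9,t11-CLA against DMSO and for ritonavir with DMSO against ritonavir the reported count was 0. The share of 53 is therefore no measure of stability. Without suffixed probe sets Hspb1, Cryab and Hsph1 had no detected one left, and the counts over 7 genes were 0 for ritonavir against ethanol, 0 between the isomers and 0 for t10,c12-CLA against DMSO. In the first of these, 517 of all genes detected in that setting were 2-fold higher and 686 lower. For ritonavir with DMSO against ethanol the gene past 2-fold was then Hspa8 in place of Cryab. Its probe set without a suffix gave 1.00, just on the line, where its main one gave 0.17. At 1.5-fold the count was 3 for ritonavir against ethanol, beside 12.4% of all detected genes in each direction. For ritonavir with DMSO against ethanol it was 3, beside 6.45% higher and 7.69% lower. It was 1 for ritonavir with DMSO against ritonavir, beside 8.43% and 6.18%, and 3 for t10,c12-CLA against DMSO, beside 3.11% and 3.96%. At 3-fold the counts were 0 between the isomers and 0 for t10,c12-CLA against DMSO. The shares of all detected genes there cannot exceed those at 2-fold. These were 0.953% higher and 1.53% lower between the isomers, and 0.783% and 1.05% for t10,c12-CLA against DMSO. The isomers' count was 1 with the mean of probe sets and 1 with the lowess trend removed, since Cryab then fell under the 2-fold line. No paired analysis was possible because each group has 1 array.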
